A study of Homo sapiens with 3 samples.

Results

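IGFBP5 and IGFBP2 lie next to the captured 2q35 breast cancer risk region, and their contacts with that region were followed in 3 human cell lines. The genes were covered by the target HindIII fragments of chromosome 2 (GRCh37) whose midpoints fall between 217490000 and 217609775, the telomeric edge being the border of the captured region. These were 35 of the 3041 target fragments within 5 Mb of 2q35, and of the 17969 target fragments of the whole series, which holds 6 captured regions. Each was paired with the 227 captured fragments of 2q35, which span 217609776 to 218362744, giving 7945 pairs. IGFBP2 starts near 217498127 and IGFBP5, on the minus strand, near 217560272, so that the starts are 62.1 kb apart, and the IGFBP5 start is 49.5 kb and the IGFBP2 start 112 kb from the captured region.

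The lines were BT483, a breast line from a primary invasive ductal carcinoma, SUM44, a breast line from a pleural effusion that was grown with 1 nM estradiol, and GM06990, a lymphoblastoid line of B lymphocytes. In all 3 the chromatin was fixed in 2% formaldehyde for 5 min and digested with HindIII. BT483 was lysed after trypsin and grown in 20% serum, while SUM44 (10% serum) and GM06990 (15% serum) were lysed with a dounce. Each line gave 2 replicate count columns. Nothing says that these were separate cultures, so every p-value between lines measures only the spread between these columns. The p-values of single pairs came from summed columns and rest on the spread over all pairs of 2q35 within a line, not between replicates. Each tissue is represented by 1 line or 2, and line, medium and lysis cannot be told apart from tissue. Contact counts hold no RNA measure against which the labelled cell types could be checked.

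IGFBP5 and IGFBP2 encode secreted proteins that bind insulin-like growth factors and alter how much of these ligands reaches the IGF1 receptor, and IGFBP5 is known for its rise in the mammary gland as it regresses after lactation. The genes sit side by side and are transcribed toward each other. Capture Hi-C joins neighbouring DNA ends of the fixed nucleus by ligation and enriches the ligation products of a chosen region, so that the number of read pairs joining a captured fragment to a target fragment reports how often those fragments were in contact. Contact falls steeply with distance along the chromosome. A gene start that meets a distant element more often than its distance predicts therefore shows as an excess over a distance curve.

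The bases just before each start are shown because the contact peak described below lies at one start and not at the other. They are the 250 bases that precede the start in RefSeq (GRCh38.p14), at chr2:216695550-216695799 on the minus strand for IGFBP5 and chr2:216633170-216633419 on the plus strand for IGFBP2. Of 3 RefSeq entries for IGFBP2, the one whose distance to the IGFBP5 start (62129 bp) was nearest to that in the GRCh37 positions was taken. Capitals mark the TATA-like letters TATTTAA in IGFBP5 and the letters GGGCGG in IGFBP2.

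IGFBP5: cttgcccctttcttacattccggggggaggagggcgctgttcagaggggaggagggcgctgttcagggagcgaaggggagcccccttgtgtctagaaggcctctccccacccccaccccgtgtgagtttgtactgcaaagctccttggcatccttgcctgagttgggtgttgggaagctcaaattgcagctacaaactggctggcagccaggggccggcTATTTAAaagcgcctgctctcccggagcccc

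IGFBP2: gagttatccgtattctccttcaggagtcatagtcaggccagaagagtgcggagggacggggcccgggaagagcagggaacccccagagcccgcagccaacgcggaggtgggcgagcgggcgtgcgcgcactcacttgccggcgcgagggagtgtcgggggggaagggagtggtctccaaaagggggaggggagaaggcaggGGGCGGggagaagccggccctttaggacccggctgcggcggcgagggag

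In the IGFBP5 sequence TATTTAA begins 31 bases before the start, and these letters, chosen after the sequence was seen, occur on either strand in 4.17% of the 35116 promoters of the same length. IGFBP2 has 1 GGGCGG, found in 42.6% of them, and a GC content of 69.2% against 61.2% in IGFBP5 and a median of 58%. Neither window holds the HindIII letters AAGCTT, which 5.02% of promoters hold. The canonical TATA box letters TATAAA, held by 10.7% of promoters on either strand, are in neither window. On GRCh37 the IGFBP5 start lies 454 bp inside the telomeric end of its HindIII fragment, chr2:217552337-217560726, so that the promoter shown above belongs to that fragment and the next one begins shortly upstream. The IGFBP2 start lies in chr2:217496757-217504279.

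Within 5 Mb of 2q35 the replicates held 26168 and 182578 contacts in BT483, 353452 and 315728 in SUM44, and 124286 and 114237 in GM06990. Of these, 3796 and 20850, 53355 and 48251, and 14006 and 11223 fell on the 35 fragments. The lower replicate of BT483 was thus the shallowest by far, and only 31.1% of its pairs in the window held any contact, against 60.9% to 89.0% in the other 5 columns. Counts were read against an expected count per pair, a smooth function of distance and of the captured fragment's contacts with other chromosomes (trans), and observed over expected is 1 where a fragment meets the captured region as often as the 2q35 curve of its replicate predicts.

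The whole IGFBP window met the captured region more often than the curve of distance and trans contacts predicted in all 3 lines. The excess over this curve was larger in both breast lines than in GM06990. Observed over expected stood at 1.60 and 1.59 for the BT483 columns, at 1.50 and 1.53 for the SUM44 columns and at 1.29 and 1.27 for the GM06990 columns. No replicate of a breast line overlapped one of GM06990. With distance alone in the curve, the window was above its expectation in the breast lines only, and below it in GM06990. As a raw share of contacts within 5 Mb, the window took 14.5% (95% Clopper-Pearson 14.1 to 14.9) and 11.4% (11.3 to 11.6) in BT483, 15.1% and 15.3% in SUM44, and 11.3% (11.1 to 11.4) and 9.82% (9.65 to 10.0) in GM06990. These intervals cover counting error only, and in these shares the second BT483 column was close to the higher GM06990 column. Ranked among 82 tiles of the same length around 2q35, the window was the tile with the highest ratio in BT483, rank 5 in SUM44 and rank 14 in GM06990.

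**Figure D1:**
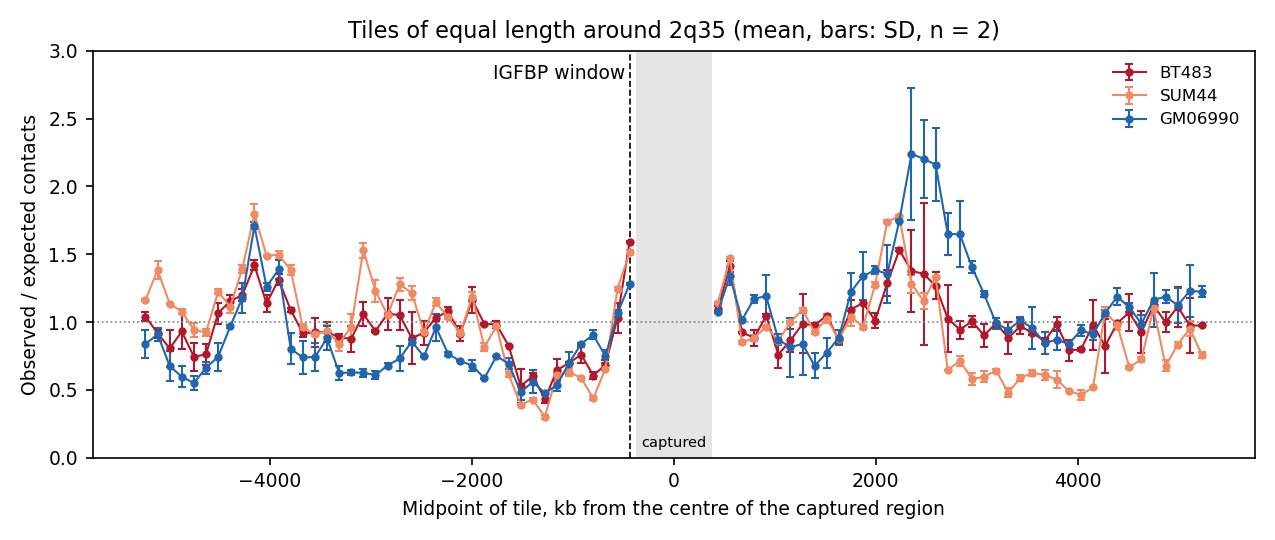
Observed over expected contacts with the captured region (vertical axis, mean of 2 replicates, bars SD) for tiles of equal length by distance from the centre of the captured region in kb (horizontal axis), in 3 lines; the grey band is the captured region. The IGFBP window, at the dashed line, sits at 1.59 in BT483, 1.51 in SUM44 and 1.28 in GM06990.

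Fitted as 1 of 246 tiles of 3 risk loci, the window exceeded GM06990 in BT483 by a log2 difference of 0.31 (SE 0.037, edgeR quasi-likelihood adjusted p = 0.000442). SUM44 was higher than GM06990 by 0.24 (SE 0.037, edgeR adjusted p = 0.000626). Both comparisons use the same GM06990 columns. Of all tiles 37.8% were called in either direction and 21.5% higher in BT483, and 66.3% and 31.3% in SUM44, so a call of this kind was common along the loci. BT483 and SUM44 differed by 0.073 (SE 0.037, edgeR adjusted p = 0.196), a difference that did not pass the threshold, where 22.4% of tiles were called, 15.4% higher in BT483. On the other side of the captured region, the adjoining tile of the same length had 1.10 ± 0.021 in BT483, 1.14 ± 0.0081 in SUM44 and 1.08 ± 0.0049 in GM06990 (SD, n = 2). The window exceeded it 1.45 ± 0.035-fold, 1.33 ± 0.025-fold and 1.19 ± 0.0034-fold (SD, n = 2), in the same order of lines.

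Scaled by total contacts within 5 Mb in place of the distance curve, the difference was 0.30 for BT483 (adjusted p = 0.067, no longer called) and 0.53 for SUM44, and that between the breast lines turned to -0.23. With a curve of distance alone, without the trans contacts, the GM06990 ratio fell from 1.28 to 0.654.

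The excess was not spread evenly: it lay around the IGFBP5 start, with the gene-side fragments next to it, and over the telomeric, upstream stretch. The 16 fragments from the IGFBP5 start to the captured region had 2.01 ± 0.047 in BT483, 1.83 ± 0.026 in SUM44 and 1.44 ± 0.021 in GM06990 (SD, n = 2). The 16 between the starts, including both fragments that hold a start, had 1.14 ± 0.058, 1.18 ± 0.0025 and 1.14 ± 0.017. The 3 centromeric of IGFBP2 had 1.06 ± 0.24, 1.19 ± 0.036 and 0.901 ± 0.041. The mean between the starts takes in the fragments next to the IGFBP5 start, which were part of the rise, together with fragments nearer IGFBP2 that had lower ratios. In GM06990 the 1.44 of the telomeric stretch also rested on the trans contacts in the curve, and was 0.510 with distance alone.

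Over the 3 fragments within 5 kb of the IGFBP5 start (chr2:217552337-217565782) the ratio was 4.08 and 3.45 in BT483, 3.04 and 3.02 in SUM44, and 2.28 and 2.29 in GM06990. Over the 3 within 5 kb of the IGFBP2 start (chr2:217493008-217504279) it was 0.863 and 1.10 in BT483, 1.12 and 1.19 in SUM44, and 0.977 and 0.991 in GM06990. The IGFBP5 start was thus above its expectation in all 6 columns and highest in BT483, while the IGFBP2 start stayed near 1 and its columns of BT483 and GM06990 overlapped. IGFBP5 exceeded IGFBP2 3.94 ± 1.13-fold in BT483, 2.62 ± 0.11-fold in SUM44 and 2.32 ± 0.019-fold in GM06990 (SD, n = 2), and the BT483 columns (4.73 and 3.14) lay above those of SUM44 (2.70 and 2.54) but far from each other.

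**Figure D2:**
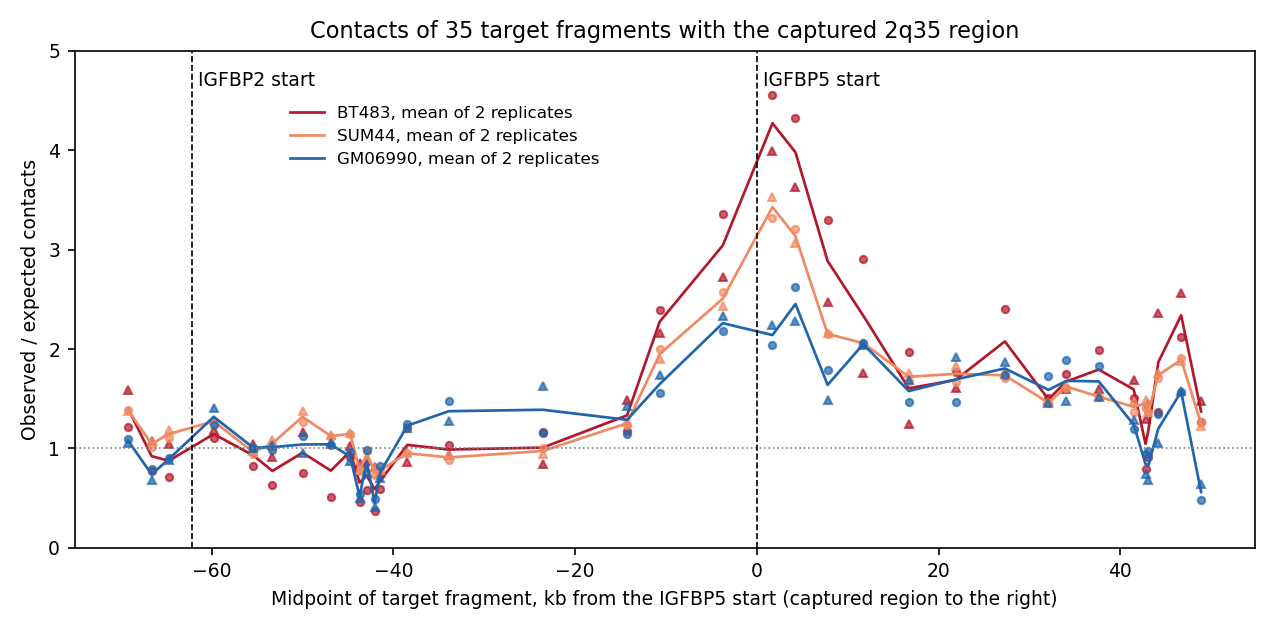
Observed over expected contacts with the captured region (vertical axis) for each of the 35 target fragments by distance of its midpoint from the IGFBP5 start in kb (horizontal axis; the captured region begins at the right end). Lines are means of 2 replicates, circles replicate 1 and triangles replicate 2; the peak at the IGFBP5 start reaches 4.27 in BT483, 3.43 in SUM44 and 2.45 in GM06990.

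The highest member of the window was chr2:217560727-217563272, a fragment of 2546 bp that begins just upstream of the fragment with the IGFBP5 start. It held 303 and 1519 contacts in BT483, 3428 and 3235 in SUM44 and 609 and 550 in GM06990, or 4.55 and 3.99, 3.32 and 3.53, and 2.04 and 2.24 times the expected number. Among the target fragments of 2q35 tested it ranked 1 in both breast lines and 91 in GM06990, with no overlap between the breast columns and those of GM06990. Its telomeric neighbour, chr2:217563273-217565782, had 4.33 and 3.63 in BT483, 3.20 and 3.07 in SUM44 and 2.62 and 2.28 in GM06990. In GM06990 this neighbour had the highest mean of the members (2.45 ± 0.24 against 2.14 ± 0.14, SD, n = 2). The fragment that holds the IGFBP5 start itself had 3.36 and 2.72 in BT483, 2.58 and 2.44 in SUM44 and 2.18 and 2.34 in GM06990, where replicate 2 was higher at this fragment than at the neighbour, so the columns of GM06990 differ in which member was highest.

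Beyond these 3, the peak declined over the nearest fragments on either side, except telomeric in GM06990, where the ratio fell and rose again. The next fragment telomeric, chr2:217565783-217570353, had means of 2.88, 2.15 and 1.64 in BT483, SUM44 and GM06990, and chr2:217570354-217573630 had 2.34, 2.06 and 2.05. Nearer the captured region BT483 and SUM44 also fell and rose again. They had means of 1.49 and 1.46 at 217591227-217593493, and of 2.34 and 1.89 at 217605387-217608552. On the gene side, chr2:217546853-217552336 had 2.28, 1.95 and 1.65, and chr2:217545143-217546852, the next one in, was already at 1.33, 1.25 and 1.29. The profile of the members was alike in the replicates, with Pearson r over the 35 fragments of 0.909 in BT483, 0.993 in SUM44 and 0.909 in GM06990, given as a description since neighbouring fragments share their distance and their captured partners.

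The IGFBP2 start fragment had 1.11 and 1.18 in BT483, 1.26 and 1.29 in SUM44 and 1.23 and 1.40 in GM06990. Its centromeric neighbour, chr2:217494356-217496756, had means of 0.875, 1.14 and 0.890, and its telomeric neighbour, chr2:217504280-217505458, had 0.930, 0.963 and 1.01. No rise like that at the IGFBP5 start was seen here in any line. The 5 lowest members were 217493008-217494355, at 0.902 in the mean of the 3 lines, and 4 consecutive fragments of 480 to 1119 bp, between 217516324 and 217519193, at 0.603 to 0.846. Shorter fragments held fewer contacts: Spearman rho between length and contacts over the 35 members was 0.31 in BT483, 0.36 in SUM44 and 0.53 in GM06990, and with fragment length added to the curve the IGFBP5 start window was 2.86 in SUM44 and 2.07 in GM06990.

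Fragment by fragment, 6 of the 35 members were higher in BT483 than in GM06990 and none lower, where 7.45% of all fragments tested at 3 risk loci were called higher, 5.18% lower and 12.6% in either direction. In SUM44, 8 of 35 were higher than in GM06990 and 2 lower, where 13.8% and 10.6% of all fragments were, 24.5% in all. All 35 passed the filter of 50 contacts in 1 line. The median log2 difference of the members was 0.11 in BT483 and 0.15 in SUM44, against 0.059 and 0.090 over all 5466 fragments tested. Both comparisons share the GM06990 columns.

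The calls of BT483 lay at the IGFBP5 start and at the border of the captured region, and those of SUM44 also elsewhere. At the start, the summit fragment 217560727-217563272 was higher by 0.99 in BT483 (SE 0.15, edgeR adjusted p = 0.000632) and by 0.68 in SUM44 (SE 0.14, edgeR adjusted p = 0.00185). The fragments 217563273-217565782 and 217565783-217570353 were higher in BT483, by 0.68 (SE 0.15) and 0.78 (SE 0.17), and had 0.35 and 0.39 in SUM44, short of the threshold (edgeR adjusted p = 0.0836 and 0.0800). The fragment with the IGFBP5 start had 0.41 in BT483 (SE 0.15, edgeR adjusted p = 0.0897) and 0.15 in SUM44 (SE 0.15, edgeR adjusted p = 0.479). The one with the IGFBP2 start had -0.19 and -0.05, neither past the threshold. The largest differences at the start were thus on the upstream side, not on the fragment that contains the start and the first part of the gene.

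At the border, the last fragment before the captured region, chr2:217608553-217609775, had 1.26 and 1.48 in BT483, 1.26 and 1.23 in SUM44 and 0.482 and 0.640 in GM06990. It was higher by 1.31 in BT483 (SE 0.17) and by 1.16 in SUM44 (SE 0.16), the largest difference of any member, and it adjoins the shortest distances of the curve. A low GM06990 ratio at under 100 kb was also seen on the telomeric side of the captured region. The telomeric tile had 0.826, 0.952 and 0.530 there in BT483, SUM44 and GM06990. The targets centromeric of the capture, at this distance all fragments of the window itself, had 1.24, 1.38 and 1.16. All 2q35 targets, which here join both of these sets, had 0.965, 1.11 and 0.736. In BT483 217605387-217608552 and 217603525-217605386 were also higher, by 0.59 and 0.70. In SUM44 217603525-217605386 was higher by 0.53, and the short fragments 217602899-217603199 and 217603200-217603524 by 0.77 and 0.71. The other calls in SUM44 lay around IGFBP2 and between the genes: 217493008-217494355, 217516324-217516803 and 217517923-217518516 were higher by 0.50, 0.58 and 0.74, and 217524454-217528307 and 217528308-217545142 lower, at -0.60 and -0.51. The stretch between the starts thus held calls in both directions.

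Between BT483 and SUM44 edgeR called none of the 35 members, 4 at an unadjusted p under 0.05, and DESeq2 also called none, where 0.183% of all fragments were called, 0.0183% higher and 0.165% lower in BT483. Without the distance curve, TMM factors and DESeq2 size factors each called all 35 members, lower in BT483. Without replicate 1 of BT483 the count was 3 and without replicate 2 it was 5. The largest of these differences was 0.39 (SE 0.16), at 217565783-217570353, and at the summit BT483 was 0.31 above SUM44 (SE 0.14). A p that misses the threshold does not show that the lines are alike here.

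**Figure D3:**
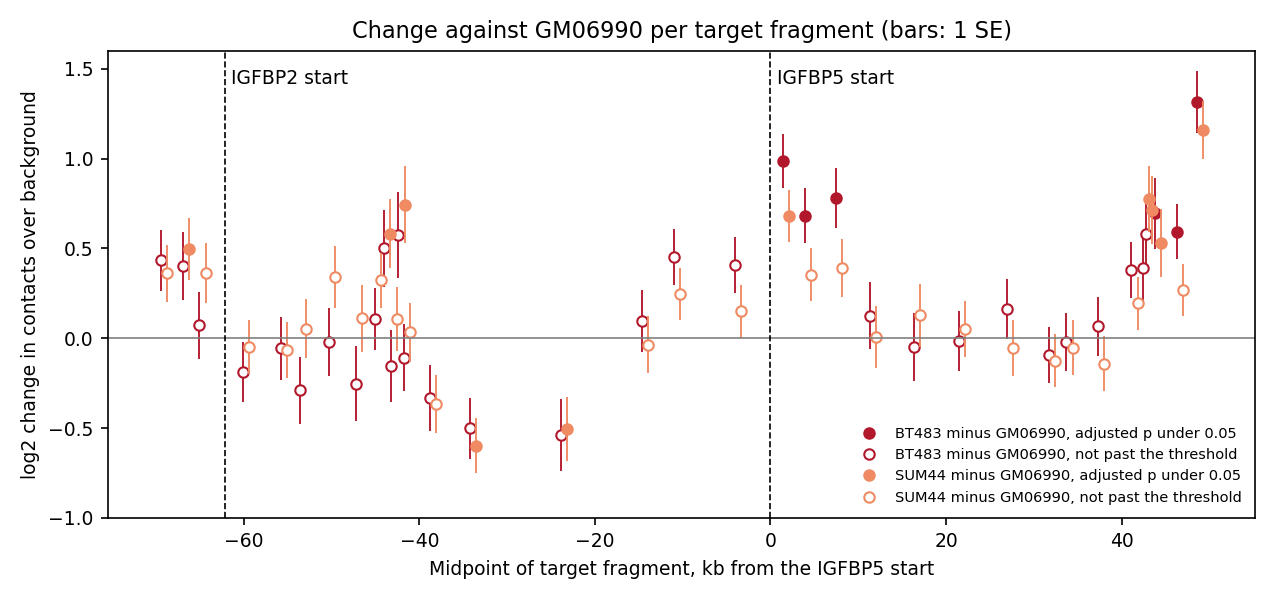
Log2 difference from GM06990 in contacts over the distance background (vertical axis, bars 1 SE) for each of the 35 target fragments by distance from the IGFBP5 start in kb (horizontal axis), in BT483 and SUM44; filled points have an edgeR adjusted p under 0.05. In BT483 the filled points lie upstream of the IGFBP5 start, where the summit is at 0.99, and at the border of the captured region, and in SUM44 also near IGFBP2 and between the genes.

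These calls depend on the distance curve and on single libraries. Without that curve, TMM factors gave 18 members called lower in BT483 than in GM06990. There the summit fell to 0.11 and its neighbour 217563273-217565782 turned to -0.20, neither called. The border fragments 217603525-217605386, 217605387-217608552 and 217608553-217609775 also turned in BT483, to -0.18, -0.24 and -0.36 with TMM factors and to -0.20, -0.26 and -0.39 with DESeq2 size factors, none called. In SUM44 the summit missed the threshold without SUM44 replicate 2 (0.63, edgeR adjusted p = 0.071). The counts ran from 2 (without GM06990 replicate 2) to 17 (without BT483 replicate 1) in BT483 and, in SUM44, from 3 (without SUM44 replicate 2 or GM06990 replicate 2), 4 (without SUM44 replicate 1) and 5 (without GM06990 replicate 1) to 18 (without either BT483 column).

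At the level of single pairs, IGFBP5 contacts stood out at 1 target. Of the 7945 pairs of the window, 4 exceeded the background in BT483, 2 in SUM44 and none in GM06990 (adjusted p at most 0.01 and at least 5 contacts), where 0.000579%, 0.000435% and 0% of all 690307 pairs of 2q35 did. All 6 calls have the summit fragment upstream of the IGFBP5 start as their target. In both breast lines its partner chr2:218232201-218236450, 672 kb away, was called: 5 and 26 contacts in BT483, 14.7 times the expected number (95% 9.99 to 20.9, counting error only), and 41 and 40 in SUM44, 13.2 times (10.5 to 16.4). GM06990 had 5 and 2 contacts on this pair. In BT483 the 3 further partners were 218230849-218232200 (27 contacts, 13.2 times), 218250629-218252882 (34 contacts, 11.7 times) and 218252928-218253864 (26 contacts, 14.1 times), all in the same part of the captured region. In SUM44 the other partner was chr2:218030974-218036250, 472 kb from the summit fragment, with 41 and 33 contacts (12.7 times).

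In GM06990 the lowest p-values of the window belonged to pairs at 7.73, 7.57 and 7.03 times the expected number, each with an adjusted p of 1, and 498 window pairs had an unadjusted p under 0.05. Each replicate alone gave 3 calls (without BT483 replicate 1) or none (without BT483 replicate 2, or either SUM44 column), and a Poisson background, which allows no spread beyond counting, gave 149, 1077 and 33 calls.

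Seen from the other end, the IGFBP5 start window met the far part of the captured region most in excess of the curve. In bins of 50 kb its ratio in BT483 went from 2.02 ± 0.33 at 217650001 to 7.91 ± 2.02 at 218200001, and in SUM44 from 1.55 ± 0.043 to 6.21 ± 0.13 (SD, n = 2). GM06990 had 2.12 ± 0.0053 and 3.04 ± 0.43 in these bins, but they were not its extremes. Its lowest bin was that from 217800001, at 1.31 ± 0.32, and its highest was the last. In the last bin, from 218350001, the values were 6.00 ± 1.07, 6.38 ± 0.63 and 4.84 ± 0.12. This was the highest bin of SUM44 too, and only BT483 was highest in the bin from 218200001. SUM44 was higher than GM06990 there by 0.39 (SE 0.13, edgeR adjusted p = 0.0456), and BT483 had 0.17 (SE 0.17), not called. A rise with distance was not particular to IGFBP5: the tile on the telomeric side went from 0.826 in BT483, 0.952 in SUM44 and 0.530 in GM06990 at under 100 kb to 2.15, 2.55 and 2.50 at 700 to 800 kb. All 2q35 targets centromeric of the capture went from 1.24, 1.38 and 1.16 to 1.03, 1.21 and 1.03. At under 100 kb, however, these targets are all fragments of the IGFBP window itself. They therefore do not show how targets outside the window change from that distance. Over the same 2 bands the IGFBP5 start window went from 2.49 to 5.33, from 1.99 to 5.75 and from 1.77 to 4.22, and at 600 to 700 kb it stood at 7.42, 5.94 and 2.88, where the telomeric tile had 1.46, 1.72 and 1.82.

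**Figure D4:**
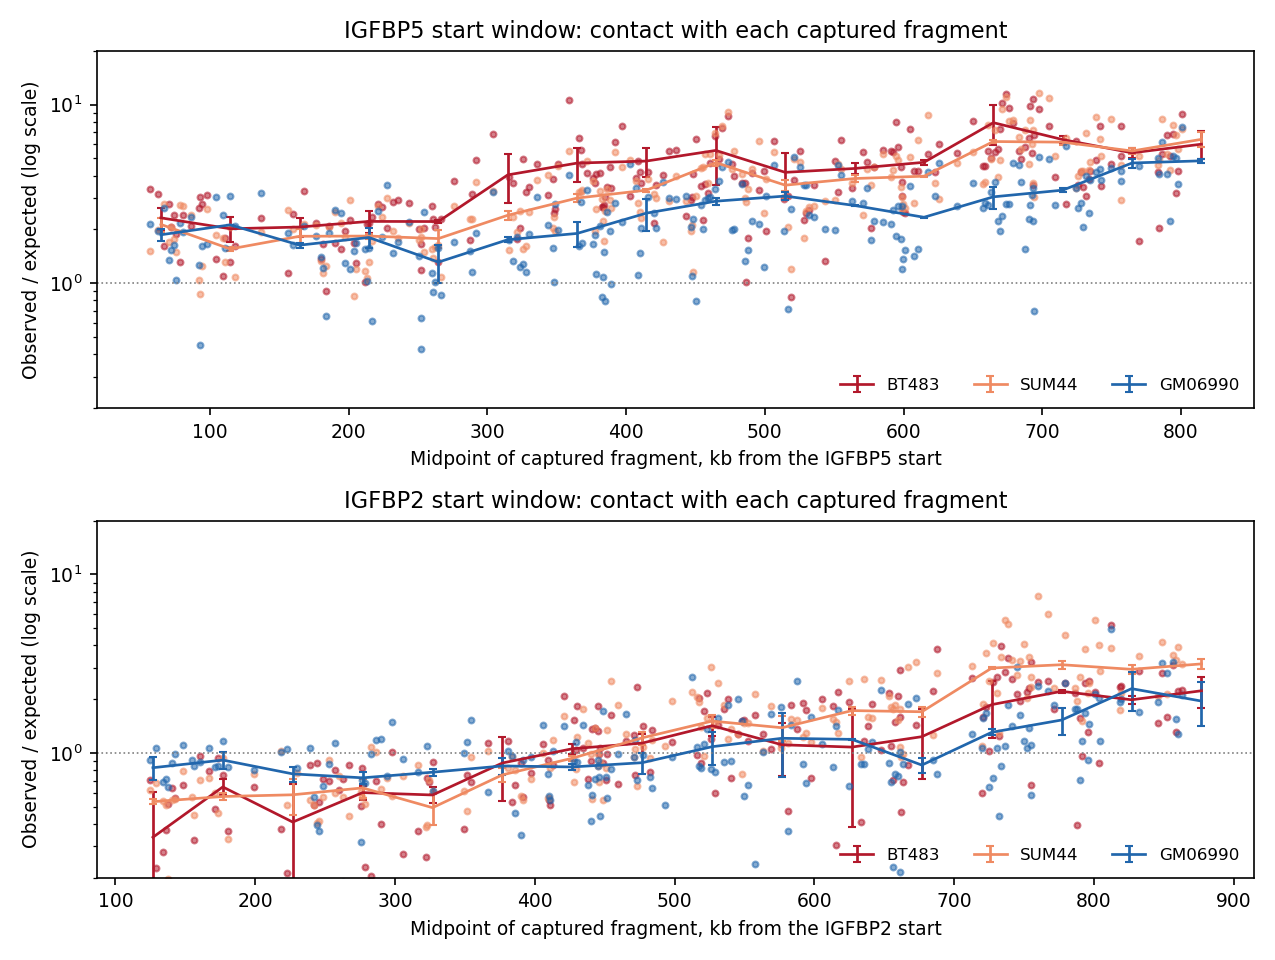
Observed over expected contacts (vertical axis, log scale from 0.2 to 20) of the IGFBP5 start window (top) and the IGFBP2 start window (bottom) with each captured fragment, by its distance from the start in kb (horizontal axis). Points are the sums of 2 replicates, with values under 0.2 not shown. Lines are means over 50 kb bins with SD bars (n = 2), which in the bottom panel run below the axis in BT483. At the IGFBP5 start the BT483 and SUM44 lines reach 7.91 and 6.21 in the bin from 218200001, and GM06990 3.04. The SUM44 and GM06990 lines are highest in the last bin, at 6.38 and 4.84.

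Of the 227 captured fragments, 208 had at least 10 contacts with the IGFBP5 start window in 1 line. BT483 was higher than GM06990 at 28 of them and lower at 2 (14.4% called), SUM44 was higher at 37 and lower at none (17.8%), and the median log2 difference was 0.68 and 0.50. In bins, 9 of 16 were higher in BT483, and 8 were higher and 1 lower in SUM44. The bin from 217900001 was higher by 1.25 in BT483 (SE 0.22) and 0.66 in SUM44 (SE 0.21), and that from 218200001 by 1.25 (SE 0.20) and 1.02 (SE 0.18). These were the largest differences of BT483, and in SUM44 the second of them was the largest. The bins from 217600001, 217700001 and 217750001, on the near side of the captured region, and those from 218050001 and 218300001 passed the threshold in neither line. In the bin from 217650001 SUM44 was lower, at -0.45 (SE 0.098), and BT483 had -0.16 (SE 0.12).

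Only captured fragments with at least 20 contacts with the IGFBP5 start window in a line were ranked there, a cut that depends on depth. The 5 with the highest ratio lay in different places. In BT483 they were 218232201-218236450 (11.4), 218252928-218253864 (10.7), 217912886-217925467 (10.5), 218230849-218232200 (10.2) and 218250629-218252882 (9.87), where the number is the ratio of summed replicates. In SUM44 they were 218254339-218261778 (11.6), 218232201-218236450 (11.1), 218261779-218268361 (10.9), 218230849-218232200 (9.45) and 218030974-218036250 (9.05). Those of GM06990 lay mainly at the far end: 218358948-218362744 (7.51), 218344530-218349036 (6.20), 218353009-218355732 (5.17), 218254339-218261778 (5.07) and 218079347-218083663 (5.06). At 218232201-218236450 the IGFBP5 start window held 8 and 64 contacts in BT483, 111 and 94 in SUM44 and 11 and 9 in GM06990. Both breast lines were higher there, by 2.03 (SE 0.38) and 1.98 (SE 0.33). At 218344530-218349036 BT483 had 2.72 and 5.72 and GM06990 6.31 and 6.09, and the difference of -0.25 (SE 0.40, edgeR adjusted p = 0.668) was not called.

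**Figure D5:**
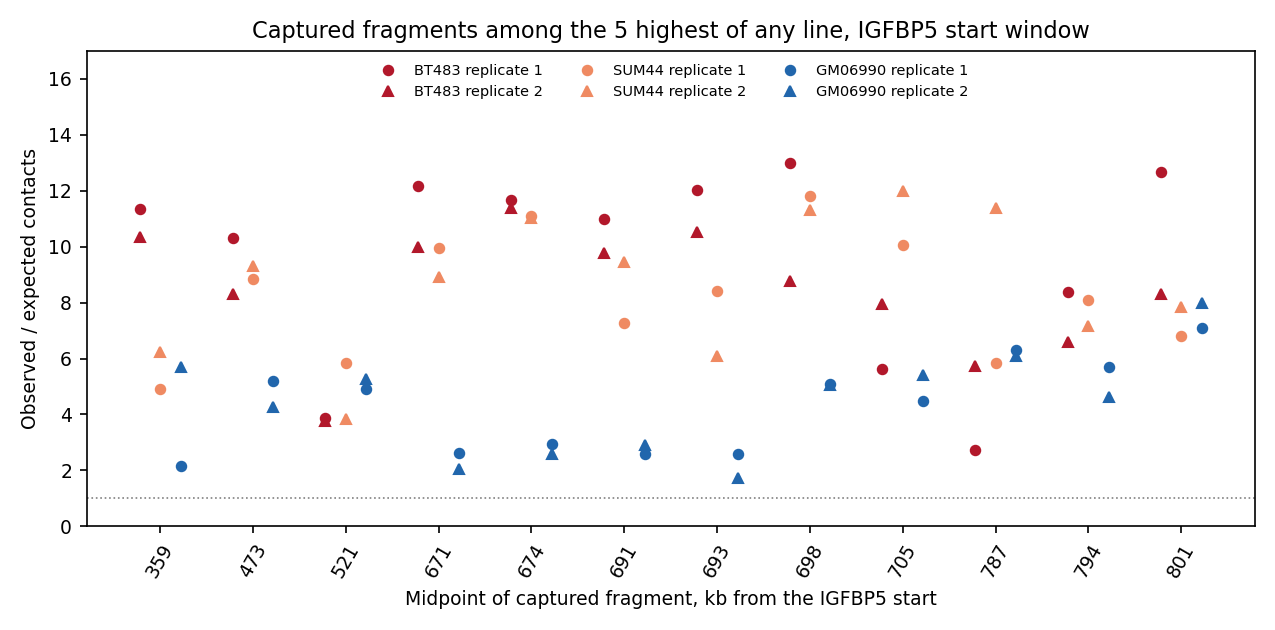
Observed over expected contacts of the IGFBP5 start window (vertical axis) by distance from the IGFBP5 start in kb (horizontal axis, not to scale). Shown are the captured fragments that rank among the 5 highest in any of 3 lines, among those with at least 20 contacts in that line. Circles are replicate 1 and triangles replicate 2. At 671 to 693 kb all breast replicates lie above 6, and those of GM06990 below 3.

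By size of difference, the leading captured fragments in BT483 were 218252928-218253864 (2.27, SE 0.40), 217968900-217969510 (2.12, SE 0.59), 218230849-218232200 (2.10, SE 0.39), 218154600-218154771 (2.07, SE 0.51) and 217925468-217927199 (2.05, SE 0.45). The 2 lower ones, 217668142-217670715 (-1.15) and 217671758-217678338 (-1.22), lay at 109 and 115 kb from the IGFBP5 start. In SUM44 the leading ones were 218245708-218250147 (2.16, SE 0.82), 218167899-218173937 (2.01, SE 0.61), 218232201-218236450 (1.98, SE 0.33), 218230849-218232200 (1.98, SE 0.34) and 217942933-217943319 (1.82, SE 0.42). Counts behind these were low in GM06990, where 218245708-218250147 held 2 and 1 contacts and 217968900-217969510 held 1 and 7. At 217968900-217969510 the BT483 replicates were also far apart, at 15.2 and 3.48.

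BT483 and SUM44 differed at 1 captured fragment, 217925468-217927199 (0.481% called), which was higher in BT483 by 1.05 (SE 0.27, edgeR adjusted p = 0.0258). Its ratio was 11.1 and 5.91 in BT483, 3.30 and 3.18 in SUM44 and 1.20 and 2.07 in GM06990.

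DESeq2 called no captured fragment in any of the 3 comparisons (27, 13 and 3 at an unadjusted p under 0.05), and with each captured fragment's own contacts as its scale edgeR called 0, 44 and 0. Leaving out 1 column gave 19 without BT483 replicate 2, 5 without GM06990 replicate 1 and 9 without GM06990 replicate 2 for BT483, and for SUM44 12 without SUM44 replicate 1, 10 without SUM44 replicate 2, 5 without GM06990 replicate 1 and 4 without GM06990 replicate 2, and the Spearman correlation of the replicates' profiles was 0.40, 0.85 and 0.43 in BT483, SUM44 and GM06990.

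The IGFBP2 start window had fewer contacts, and 179 captured fragments passed the same filter. Its ratio was under 1 over the near part of the captured region, at 0.474 ± 0.11 in BT483, 0.550 ± 0.026 in SUM44 and 0.867 ± 0.040 in GM06990 at 100 to 200 kb, and rose to 2.08 ± 0.31, 3.03 ± 0.049 and 1.44 ± 0.12 at 700 to 800 kb (SD, n = 2). At that distance SUM44 was the highest of the lines, and at 100 to 200 kb GM06990 was. SUM44 was higher than GM06990 at 5 captured fragments (2.79% called), which were 218022665-218026370, 218223872-218227959, 218230849-218232200, 218232201-218236450 and 218254339-218261778, with differences from 1.68 to 2.49. At 218232201-218236450 the counts were 49 and 40 in SUM44, 0 and 16 in BT483 and 6 and 1 in GM06990, and the difference from GM06990 was 2.31 (SE 0.52, edgeR adjusted p = 0.00163).

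In BT483 edgeR called none against GM06990 and none against SUM44 (0% of those tested), with 6 and 14 at an unadjusted p under 0.05, and DESeq2 called none in any comparison. Among captured fragments with at least 20 contacts, the highest ratios of SUM44 were at 218254339-218261778 (7.59), 218261779-218268361 (5.98), 218295541-218301734 (5.55), 218232201-218236450 (5.52) and 218236451-218236793 (5.24). In BT483 only 218230849-218232200 had 20 contacts or more (0 and 22 in the replicates, 3.97), and in GM06990 no captured fragment did, so that single partners of IGFBP2 were not resolved at the depth of these 2 lines. Windows of 10 kb on each side of the start gave 6 calls in BT483 and 14 in SUM44, while the 5 calls of SUM44 became 0 without SUM44 replicate 1, SUM44 replicate 2 or GM06990 replicate 2 and 2 without GM06990 replicate 1, and 3 with the captured fragments' own contacts as scale.

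The profile along the captured region was not confined to the fragment with the IGFBP5 start. Over 208 captured fragments, in the mean of the 3 lines, the targets most like it were its neighbours 217546853-217552336 (Spearman rho 0.76), 217560727-217563272 (0.75) and 217563273-217565782 (0.75), while the IGFBP2 start fragment had 0.67. Outside the window the most like were 217406694-217410177 (0.75), 217365718-217368928 (0.74) and 217487732-217489226 (0.73), with midpoints at -152, -193 and -71.8 kb from the IGFBP5 start. All of these share the captured fragments and the libraries, so the values are a description, and targets on the far side of IGFBP2 had nearly the same likeness to the IGFBP5 start fragment as the members next to it.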

How the data were processed

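The values used are raw read-pair counts per captured and target HindIII fragment, deposited by the authors, 1 column for each replicate. CASAVA 1.8 was used, per the submitters' processing notes, and positions are GRCh37 (hg19); the aligner was not given in the sources used here. Expected counts came from a negative binomial regression per replicate on log10 distance (cubic spline, 4 knots) and on the captured fragment's log(trans count + 1). Pairs were called on summed replicates (Benjamini-Hochberg over all pairs of 2q35). Lines were compared with edgeR 4.0.16 (quasi-likelihood, expected counts as offset) over targets or tiles with 50 contacts in 1 line and captured fragments with 10, at an adjusted p under 0.05; SEs are the log2 difference over the root of F. DESeq2 1.42.0 was an alternative. Scripts were tested on simulated data. Members, lists and named fragments (both starts and neighbours, the 5 highest and lowest members, the 5 highest partners and largest changes, called pairs) were chosen with earlier results of these data known. Same-numbered replicates did not deviate together (r from -0.075 to 0.080), so numbers pair nothing. Counts within the captured regions, low-resolution and far trans tables were not used.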

Additional observations from a re-analysis of the deposited data

Results flagged for a closer look

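BT483 and SUM44, the 2 breast lines, differed in contact between the IGFBP5 start window and the captured fragment 217925468-217927199, and the difference itself was tested. It was higher in BT483 by 1.05 on the log2 scale (SE 0.27, edgeR adjusted p = 0.0258), the lowest replicate of BT483 (5.91 times the expected number) lying above the highest of SUM44 (3.30). With 1 column left out the difference ran from 0.86 to 1.77. The replicates of BT483 held 13 and 55 contacts there and those of SUM44 76 and 68. DESeq2 called no captured fragment in this comparison.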

How the results depend on the processing

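Depth limits the profiles: BT483 replicate 1 and both GM06990 columns leave most captured partners with a few contacts, and with 2 columns a line each count of calls moved with single libraries. The whole window kept its direction and call in 28 of 30 alternative fits, which include those of BT483 minus SUM44, not called in the main fit. Total contacts within 5 Mb as scale was the only alternative among them that replaced the curve. The exceptions came with that scale (BT483 minus GM06990 0.30, not called, and BT483 minus SUM44 -0.23). The cause of these changes was not tested.

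With a curve of distance alone, observed over expected for BT483, SUM44 and GM06990 was 1.38, 1.41 and 0.654 over the window and 1.62, 1.67 and 0.510 from the IGFBP5 start to the capture. It was 1.13 (SUM44) centromeric of IGFBP2, 1.12 (SUM44) between the starts, 1.10 (SUM44) and 0.972 (GM06990) at the IGFBP2 start, and 2.83 and 2.24 at the IGFBP5 start. With fragment length in the curve it was 1.57, 1.49 and 1.24 over the window, 1.16 (SUM44) and 1.10 (GM06990) between the starts, 1.40 (GM06990) from the IGFBP5 start to the capture, 0.934 (GM06990) at the IGFBP2 start, and 2.86 (SUM44) and 2.07 (GM06990) at the IGFBP5 start. Start windows of 10 kb on each side gave 3.30, 2.64 and 2.03 at IGFBP5 and 0.997 (GM06990) at IGFBP2.

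Window fragments called in BT483 minus GM06990 numbered 3 with total contacts as scale, 18 with TMM factors and 18 with DESeq2 size factors and no distance curve, and 2 to 17 with 1 column left out. In SUM44 minus GM06990 they numbered 6 with DESeq2, 16 with TMM factors and 3 to 18 with 1 column left out, and in BT483 minus SUM44 35, 35 (TMM, DESeq2 size factors) and 0 to 5. Without the distance curve (TMM, then DESeq2 size factors) BT483 minus GM06990 reversed at the fragments from 217552337 (-0.48, -0.50), 217563273 (-0.20, -0.22), 217565783 (-0.086, -0.11), 217603525 (-0.18, -0.20), 217605387 (-0.24, -0.26) and 217608553 (-0.36, -0.39). SUM44 minus GM06990 reversed at 217496757 (0.33, 0.24, with total contacts 0.23, and -0.14 to 0.047 with 1 column left out), and BT483 minus SUM44 at 217552337 (-1.08, -1.01, with total contacts -0.067).

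Captured partners of the IGFBP5 start numbered 5 to 29 (BT483 minus GM06990), 4 to 44 (SUM44 minus GM06990) and 0 to 4 (BT483 minus SUM44) with 1 column left out. DESeq2 gave 0, 0 and 0, and own contacts as scale 0 for both BT483 comparisons. Bins of 50 kb, an alternative chosen after seeing the data, gave 9, 9 and 0, and for BT483 minus SUM44 the wider window gave 0. Partners of the IGFBP2 start numbered 0 to 1 and 0 to 7 (BT483, SUM44 minus GM06990) with 1 column left out, 6 and 14 with the wider window, and for SUM44 0 with DESeq2 and 3 with own contacts as scale.

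With the replicate number as a block, which pairs nothing in these columns, window fragments numbered 6, 8 and 0, partners of the IGFBP5 start 24, 25 and 2, and for BT483 minus SUM44 partners of the IGFBP2 start 1. Pairs called numbered 149 (BT483), 1077 (SUM44) and 33 (GM06990) with a Poisson background, 5 (SUM44) with distance alone, 0 and 0 in the breast lines at an adjusted p of at most 0.001, and, with 1 column left out, 0 to 3 in BT483 and 0 to 0 in SUM44.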
